A study of Homo sapiens with 4 samples.

Results

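The hemidesmosome and laminin-332 genes were examined in ATAC-seq peak lists of BJ cells, an established line of human dermal fibroblasts. In ATAC-seq a transposase cuts and tags accessible DNA, so that a peak marks an accessible region. The 9 genes were ITGA6, ITGB4, ITGA3, COL17A1, DST, PLEC, CD151, LAMA3 and LAMB3, which were named for their function, with earlier results of these data known. A peak was assigned to a gene when its summit lay in the gene body or within 50 kb of any of its GENCODE transcription start sites (TSS). By this rule 180 of the 101142 CTR peaks and 201 of the 109486 p63 peaks on chromosomes 1 to 22, X and Y belonged to the 9 genes. With a −log10 q of 10 or more, which is the peak caller's significance after correction and the threshold of the study's own comparison, 106 of 56680 CTR regions and 113 of 62343 p63 regions were left.

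The study had 2 groups of 2 replicates. Cells of the CTR group expressed KLF4 alone and cells of the p63 group expressed Myc-tagged ΔNp63α together with KLF4, so that KLF4 was present in both. In both constructs a self-cleaving peptide lay between the Myc tag and KLF4. In both groups the cells carried rtTA, the doxycycline-dependent activator, and a retroviral doxycycline-inducible construct, and both were polyclonal lines with a separate induction for each replicate. By the study's methods both groups were treated with doxycycline for the same short time before ATAC-seq. The paper describes the set-up as one that detects early changes of chromatin after p63 expression, so the lists do not show an end state of conversion. The authors deposited 1 peak list per group. By the study's methods it was made from both replicates, but the peak names point to a single alignment of a pair of inputs and do not say if that pair was a pair of replicates or the mates of 1 library, so a pileup below may count the reads of both replicates or of fewer. No spread between replicates can therefore be given, no p-value was computed, and every interval below covers counting error only.

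Hemidesmosomes are the junctions by which basal epithelial cells hold to the basement membrane. The integrin α6β4 in the plasma membrane binds laminin-332 outside the cell and is tied to keratin filaments inside it by plectin and BP230, whereas collagen XVII and the tetraspanin CD151 belong to the membrane part of the complex. ΔNp63α is the p63 isoform of basal keratinocytes, where it maintains genes of cell adhesion among others, and KLF4 is a zinc finger factor of the upper epidermis. Dermal fibroblasts have no hemidesmosomes, and they meet the matrix through other integrins and discoidin receptors. The label of the cells was checked at marker promoters. Of 7 fibroblast genes, 6 had a region of each list within 1 kb of their canonical TSS, with COL1A1 as the exception in both, whereas 0 of 7 epithelial genes (KRT5, KRT14, CDH1, EPCAM, ESRP1, GRHL2 and OVOL1) had one in either list.

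Some of the sequences at these genes are shown first, from hg38 on the plus strand unless stated. The p53/p63 family site is 20 bp long and consists of a pair of decamers, each with a fixed C and G in its core, and up to 3 mismatches were allowed at the other 16 positions within 100 bp of a summit. Printed here are the best match at the strongest region of the ITGA6 locus that was in the p63 list alone, which had 4 mismatches and so fell outside the limit, and the matches with 3 mismatches at a region of the ITGA3 locus and in an intron of DST, both of which were open in both groups. Capitals mark the 20 bp match.
ITGA6 chr2:172403602-172403651: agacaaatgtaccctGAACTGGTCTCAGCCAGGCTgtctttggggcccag
ITGA3 chr17:50107875-50107924: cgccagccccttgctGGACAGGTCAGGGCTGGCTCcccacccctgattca
DST chr6:56663551-56663600: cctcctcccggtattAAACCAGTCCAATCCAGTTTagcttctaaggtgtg
The windows of 100 bp to either side of the summit are given for the 2 regions nearest to the starts of ITGB4 and ITGA3 that passed the threshold in the p63 list alone. Capitals mark a KLF motif, GGGTGTGG, in the ITGB4 window and an AP-1 motif, TGAGTCA, in the ITGA3 window.
ITGB4 chr17:75723290-75723490: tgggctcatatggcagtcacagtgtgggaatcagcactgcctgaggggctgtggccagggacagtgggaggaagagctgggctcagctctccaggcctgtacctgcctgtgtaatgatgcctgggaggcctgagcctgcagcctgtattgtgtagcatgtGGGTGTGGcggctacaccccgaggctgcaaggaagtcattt
ITGA3 chr17:50047628-50047828: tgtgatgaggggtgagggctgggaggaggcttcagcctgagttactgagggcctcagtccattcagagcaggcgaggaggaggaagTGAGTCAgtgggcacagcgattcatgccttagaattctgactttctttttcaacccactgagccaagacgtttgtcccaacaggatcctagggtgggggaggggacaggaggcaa
Promoter sequences (RefSeq, GRCh38.p14, 250 bases before to 50 after the start, 5′ to 3′ on the strand of the gene) are given for a LAMB3 start inside intron 1 of the canonical transcript, for the LAMA3 start of the shorter transcripts and for the start of COL17A1. Only the LAMB3 window held a region of either list at the threshold. Capitals mark AP-1 motifs (TGACTCA or TGAGTCA).
LAMB3 chr1:209651325-209651624, minus strand: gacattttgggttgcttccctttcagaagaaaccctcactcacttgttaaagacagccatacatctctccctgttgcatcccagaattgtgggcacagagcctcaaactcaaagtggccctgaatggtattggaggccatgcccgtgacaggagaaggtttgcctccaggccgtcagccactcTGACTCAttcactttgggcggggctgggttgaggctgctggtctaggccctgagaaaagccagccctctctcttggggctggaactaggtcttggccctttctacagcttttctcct
LAMA3 chr18:23872770-23873069, plus strand: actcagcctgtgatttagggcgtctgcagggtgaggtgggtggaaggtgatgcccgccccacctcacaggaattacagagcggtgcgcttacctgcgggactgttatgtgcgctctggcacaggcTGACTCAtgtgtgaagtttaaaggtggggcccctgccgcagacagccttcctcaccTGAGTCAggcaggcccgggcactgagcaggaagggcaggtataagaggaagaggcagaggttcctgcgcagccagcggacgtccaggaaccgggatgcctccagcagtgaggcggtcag
COL17A1 chr10:104085831-104086130, minus strand: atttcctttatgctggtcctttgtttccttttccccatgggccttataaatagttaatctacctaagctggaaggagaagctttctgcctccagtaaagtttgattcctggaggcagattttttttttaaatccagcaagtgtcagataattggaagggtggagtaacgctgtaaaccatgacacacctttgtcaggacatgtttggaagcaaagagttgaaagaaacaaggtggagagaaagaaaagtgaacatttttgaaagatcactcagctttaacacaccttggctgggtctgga

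Most accessible regions at the 9 genes were present in both groups. Of the 113 p63 regions, 20 had no overlapping CTR region at the threshold and were called p63-only, which was 17.7% (95% Wilson interval 11.8 to 25.8%) against 23.9% over the whole p63 list. Of the 106 CTR regions, 14 were CTR-only, which was 13.2% (8.03 to 21.0%) against 16.5% over the whole CTR list. The background share lay inside the interval of the members in both directions. Which list had more list-only regions depended on how the lists were limited, since equal numbers of top-ranked peaks gave 16 p63-only of 103 regions (15.5%) and 20 CTR-only of 106 (18.9%). The whole-list shares under that rule are not given here, so the turned order has no background share beside it. A p63-only region was found at 8 of the 9 genes, LAMA3 being the exception, and a CTR-only region at 6 of 9, with none at ITGA6, COL17A1 and CD151. Of 18 other basement membrane and adhesion genes, 14 had a p63-only region and 13 a CTR-only region. Of 10 fibroblast matrix receptor genes, 9 had a p63-only region and 8 a CTR-only region. The share over all genes was not computed.

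**Figure D1:**
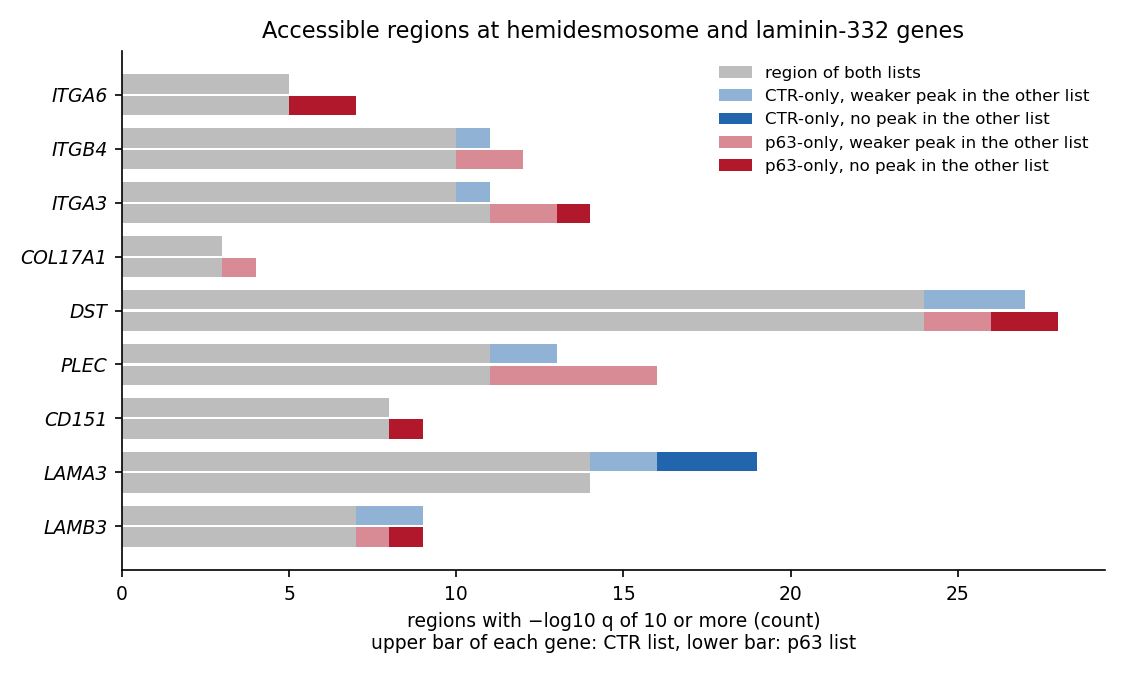
Number of regions with a −log10 q of 10 or more (x axis, count) at each gene, with the CTR list as the upper and the p63 list as the lower bar. Grey marks regions of both lists and colour list-only regions, pale where the other list held a weaker peak. LAMA3 has 5 CTR-only and 0 p63-only regions, and PLEC has 5 p63-only regions that all overlap weaker CTR peaks.

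More list-only regions had a weaker counterpart in the other list than none. Of the 20 p63-only regions 13 coincided with a CTR peak that missed the threshold, and 7 met no CTR peak of any strength. These 7 were 6.19% of the p63 regions at the genes (3.03 to 12.2%), against 12.0% over the whole p63 list. Of the 14 CTR-only regions 3 had no p63 peak at any threshold, which was 2.83% (0.967 to 7.99%) against 3.29% over the whole CTR list, and all 3 lay in LAMA3. The pileup at the summit, which is the number of reads that cover it, ranged from 15 to 78 with a median of 34 in the p63-only regions and from 16 to 53 with a median of 20 in the CTR-only regions. The lowest pileup of any region at the threshold was 15 in both lists, so that a weaker opening could not be seen as a region.

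Promoters made up more of the regions at these genes than of the lists as a whole. The summit lay within 3 kb of an annotated TSS in 61 of the 113 p63 regions (54.0%, 44.8 to 62.9%) against 39.4% of all p63 regions. The rule that assigned peaks to the genes takes only peaks in a gene body or near a TSS, whereas the whole lists also hold peaks far from genes. How much of the difference came from that rule was not tested. Since promoters were less often list-only, the shares were also taken within each class. Among promoter regions 9 of 61 were p63-only (14.8%, 7.96 to 25.7%) against 15.8% of all promoter regions of the p63 list, and among the others 11 of 52 (21.2%, 12.2 to 34.0%) against 29.2%. Several loci are crowded, and the nearest protein-coding TSS was that of the member itself at 72 of the 113 p63 regions and at 12 of the 20 p63-only regions. The other 8 p63-only regions lay nearer to SAP30BP at the ITGB4 locus, to DLX3 and SAMD14 at the ITGA3 locus, to PARP10, GRINA and SPATC1 at the PLEC locus, to TSPAN4 at the CD151 locus and to CAMK1G at the LAMB3 locus.

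To compare the strength of accessibility, each p63 peak was paired with the CTR peak that was its best overlap in both directions, and the ratio of their pileups was divided by 0.957, the p63/CTR ratio of background coverage. Background coverage was the lowest background solved for any peak of a list. A pair entered when either peak passed the threshold, which gave 116 pairs at the 9 genes and 62115 in all. The median p63/CTR ratio was 1.14 at the genes (quartiles 0.965 and 1.35) and 1.04 over all pairs (0.860 and 1.30). The ratio was at least 1.5 in 17 of the 116 pairs (14.7%) against 14.5% of all pairs, and at most the inverse of 1.5 in 4 of 116 (3.45%) against 8.27% of all pairs. The exact 95% counting interval of the ratio lay above 1 in 15 pairs (12.9%), against 9.55% of all pairs, and below 1 in 1 pair (0.86%), against 2.06%. The shares at 1.5 or more were thus close to each other. The local background, which the peak caller takes from the reads around a peak, also differed between the lists. Its median p63/CTR ratio was 1.04 over the 116 pairs against 0.957 over all pairs. Fold enrichment, the pileup relative to that background, had a median p63/CTR ratio of 1.03 at the genes and 1.03 over all pairs, so the higher median at the genes was seen in the pileup and not in the enrichment. Among the regions at the threshold, 3 of the p63 list and 2 of the CTR list overlapped a pair of peaks of the other list. A higher pileup can come from more cells with an open region or from more openness per cell, and these cannot be told apart.

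**Figure D2:**
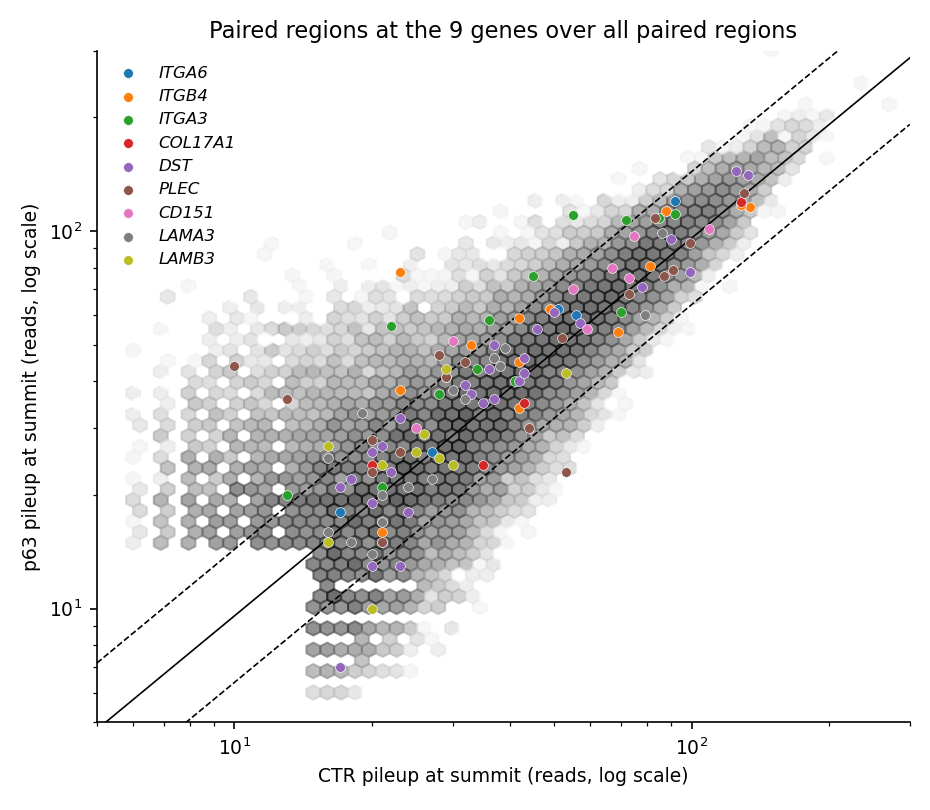
Pileup at the summit in the CTR list (x axis, reads, log scale) and the p63 list (y axis, reads, log scale) of the 116 paired regions at the 9 genes, coloured by gene, over the density of all 62115 pairs in grey. The solid line marks equal accessibility after scaling and the dashed lines a ratio of 1.5 in either direction. Most points follow the solid line, and the ITGB4 region with 78 against 23 reads and the PLEC locus regions with 44 against 10 and 36 against 13 reads stand highest above it.

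By gene, the median ratio was highest at ITGA3 (1.38, 13 pairs) and CD151 (1.25, 8 pairs). It lay between 1.11 and 1.12 at ITGA6, ITGB4, DST, PLEC and LAMA3, at 1.03 at LAMB3 (10 pairs) and at 0.911 at COL17A1 (4 pairs). The local background moved most at ITGA3, with a median p63/CTR ratio of 1.45, and the median ratio of fold enrichment there was 1.04, above 1 in 7 of 13 pairs. At CD151 the local background had a median ratio of 1.07 and the fold enrichment one of 1.07. What part the local background had in these pileup ratios was not tested. The pileup ratio was above 1 in 5 of 5 pairs at ITGA6, 12 of 13 at ITGA3 and 1 of 4 at COL17A1, against 57.4% of all pairs. Without scaling it was above 1 in 4 of 5, 10 of 13 and 1 of 4, against 49.8% of all pairs. The regions of 1 gene share their libraries and a neighbourhood and are not replicates.

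**Figure D3:**
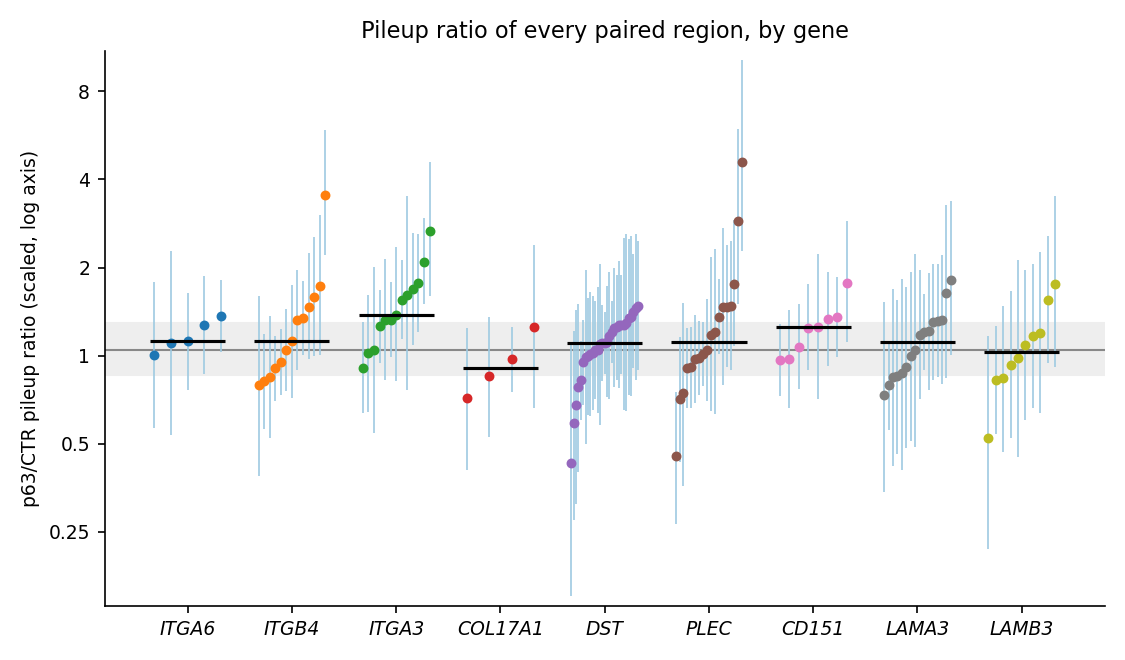
Scaled p63/CTR pileup ratio (y axis, log scale) of every paired region at the 9 genes (x axis), in ascending order within each gene. Points are regions, vertical lines their exact 95% counting intervals, black bars the median of a gene, and the grey line and band the median and quartiles of all 62115 pairs. The ITGA3 median of 1.38 lies above the band, whose upper edge is 1.30, where the median ratio of fold enrichment was 1.04, and the highest regions of ITGB4 and PLEC reach 3.54 and 4.60.

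ITGA6 (ENSG00000091409.16, chromosome 2, 172427354 to 172506459, plus strand) encodes the α6 chain, which pairs with β4 in hemidesmosomes. Its canonical TSS lay inside a region of both lists, with a pileup of 56 in CTR and 60 in p63 and a ratio of 1.12 (0.765 to 1.64). The strongest region of the locus lay in intron 1, 14614 bp downstream of the canonical TSS, and had 92 reads in CTR and 120 in p63, which was also the highest ratio of the locus (1.36, 1.03 to 1.81). The lowest ratio, 1.01, was found 22488 bp upstream of the TSS, with 27 and 26 reads, where the local background was 1.59 in CTR and 4.13 in p63 and the fold enrichment 10.8 and 5.26. Both p63-only regions of ITGA6 had no CTR peak at any threshold. The stronger of them lay in intergenic sequence 24007 bp upstream of the canonical TSS (chr2:172403356-172403764) with 60 reads at its summit, as many as the promoter, and a −log10 q of 48.7. The nearest CTR peak, 1074 bp away, was that of the region with the lowest ratio. Whether reads of this p63-only region raised the local background there was not tested. Its best p63 family match, printed above, had 4 mismatches. The weaker one lay 9532 bp downstream of the TSS in intron 1 (chr2:172436962-172437262) with 43 reads and a −log10 q of 27.9, and 4640 bp separated it from the nearest CTR peak. No AP-1 or KLF motif lay within 100 bp of either summit. The intronic one held a TEAD motif (CATTCC) and a single p63 family decamer without mismatches. At ITGA6 no region was CTR-only.

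ITGB4 (ENSG00000132470.14, chromosome 17, 75721328 to 75757818, plus strand) encodes the β4 chain, whose long cytoplasmic tail anchors plectin. Its canonical TSS lay inside no peak of either list at any threshold. The region with the highest ratio of the locus lay 1931 bp downstream of the TSS, in intron 1 (chr17:75723199-75724231), with 23 reads in CTR and 78 in p63. The ratio of 3.54 (2.20 to 5.91) stood at percentile 99.1 of all pairs. This region was p63-only, with a −log10 q of 53.5 in p63, and overlapped 2 CTR peaks under the threshold. The one it was paired with had a −log10 q of 8.86, and the other had 20 reads and a −log10 q of 6.66. The local background was 3.95 in CTR and 6.21 in p63, and the fold enrichment was 4.85 and 10.95, a ratio of 2.26. Its best p63 family match had 6 mismatches, and it held the KLF motif printed above. A match with 3 mismatches lay at a p63 peak under the threshold, 648 bp downstream of the TSS. That peak had 26 reads and a −log10 q of 7.08, and overlapped a CTR peak of 22 reads with a −log10 q of 8.36. The other p63-only region of the locus lay 25932 bp upstream in SAP30BP, with 38 reads against 23 and a ratio of 1.73 (1.002 to 3.03). The single CTR-only region, also in SAP30BP and 14151 bp upstream, had 21 reads in CTR and 16 in p63, which was the lowest ratio of the locus (0.796, 0.388 to 1.60). Both of these list-only regions in SAP30BP held a single p63 family decamer without mismatches. The pair with the highest −log10 q, 20782 bp upstream, had 88 reads in CTR and 113 in p63 (1.34, 1.01 to 1.79). Within the gene the regions of introns 26 and 27 went different ways, with 33 reads against 50 in p63 (1.58, 0.9998 to 2.54) and 42 against 34 (0.846, 0.522 to 1.36), and neither interval was far from 1.

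ITGA3 (ENSG00000005884.18, chromosome 17, 50055968 to 50090481, plus strand) encodes the α3 chain, which with β1 forms another laminin-332 receptor and is made by many cell types. Its canonical TSS was open in both groups, with 70 reads in the CTR region and 80 in the p63 region over it. The CTR region was 1612 bp wide and overlapped 2 regions of the p63 list. Its pairing gave a ratio of 0.910 (0.635 to 1.30), the lowest of the locus. That ratio refers to the second p63 region, 689 bp downstream of the TSS with 61 reads, and the paired summits lay 890 bp apart. Against the p63 region over the TSS, whose summit was 45 bp away, the ratio was 1.19 (0.855 to 1.67). Higher pileups in p63 than in CTR were found along the upstream sequence. A p63-only region 8382 bp upstream had 22 reads in CTR and 56 in p63 (2.66, 1.60 to 4.57), the highest ratio of the locus, and contained the AP-1 motif printed above. Its CTR peak had a −log10 q of 9.53, just under the threshold. Farther upstream, regions of both lists at 18271 and 28304 bp had 45 against 76 reads (1.76, 1.20 to 2.61) and 55 against 110 reads (2.09, 1.498 to 2.94). All 3 lay in intergenic sequence with ITGA3 as the nearest coding gene. The local background was higher in p63 at each of them, by 1.92 times at 8382 bp, 1.69 times at 18271 bp and 1.79 times at 28304 bp. The fold enrichment was 5.33 in CTR and 7.72 in p63 at the first, 11.4 and 12.6 at the second and 8.73 and 10.4 at the third, so that its ratios were 1.45, 1.10 and 1.19. A further region of both lists, 4854 bp upstream, had 34 and 43 reads (1.32, 0.823 to 2.14) with a fold enrichment of 4.51 in CTR and 3.79 in p63. The remaining p63-only regions were weak. One, 37023 bp upstream and nearer to DLX3, had 15 reads and no CTR peak within 7565 bp, and the other, at the SAMD14 promoter, had 20 against 13 reads (1.61, 0.761 to 3.52). The CTR-only region in intron 21 had 21 reads in both lists. The pair with the highest −log10 q was the PDK2 promoter, with 72 reads in CTR and 107 in p63 (1.55, 1.14 to 2.12). The 3-mismatch p63 family match printed above lay 51864 bp downstream of the ITGA3 TSS, in a region with 36 reads in CTR and 58 in p63 (1.68, 1.09 to 2.63) and with a PDK2 transcript starting 27 bp from the summit.

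COL17A1 (ENSG00000065618.21, chromosome 10, 104031286 to 104085880, minus strand) encodes collagen XVII, also called BP180, a transmembrane collagen of the hemidesmosome. Its promoter held no peak in either list. The nearest peak at any threshold lay 7977 bp from the canonical TSS in CTR and 7954 bp in p63. The p63-only region of the locus lay in intron 28 (chr10:104049447-104049784) with 20 reads in CTR and 24 in p63 (1.25, 0.664 to 2.39), so that it crossed the threshold with little change. It was the highest ratio at the gene and contained an AP-1 motif. The lowest was found in intron 33, with 35 reads in CTR and 24 in p63 (0.716, 0.408 to 1.24). The strongest pair belonged to the SFR1 promoter 35974 bp upstream, with 128 and 119 reads (0.971, 0.750 to 1.26).

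CD151 (ENSG00000177697.19, chromosome 11, 832887 to 839831, plus strand) encodes a tetraspanin that associates with laminin-binding integrins in many cell types. The region at its canonical TSS had 55 reads in CTR and 70 in p63 (1.33, 0.921 to 1.93). The next pair, 1379 bp downstream in intron 1, had 30 and 51 reads and the highest ratio of the locus (1.78, 1.11 to 2.89), but its paired summits lay 833 bp apart. The same p63 region overlapped another CTR region, whose summit was 68 bp away and had 42 reads, and against it the ratio was 1.27 (0.827 to 1.96), below the 1.35 of the TSPAN4 promoter region. The lowest ratio was 0.968 (0.731 to 1.28), with 109 reads in CTR and 101 in p63, in the region with the highest −log10 q of the locus, at the PIDD1 promoter. The only p63-only region lay 278 bp from a TSS of TSPAN4 (chr11:846514-846968), another tetraspanin gene, with 55 reads and no CTR peak within 1224 bp. The local background was high there, 15.1 reads, which left a fold enrichment of 3.48.

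DST (ENSG00000151914.22, chromosome 6, 56457987 to 56954830, minus strand) encodes dystonin, of which the epithelial form is the plaque protein BP230, and spans 496.8 kb with 39 annotated start sites. It carried 27 CTR and 28 p63 regions, 24 of each in both lists. The canonical TSS, close to the start of BEND6, had 90 reads in CTR and 95 in p63 (1.10, 0.818 to 1.49). At the other start sites covered by the RefSeq promoter windows the pileup was 29 in CTR and 41 in p63 (1.48, 0.896 to 2.46), which was the highest ratio of the gene, and 46 and 55 (1.25, 0.829 to 1.89). The strongest pair, in intron 2, had 133 and 141 reads (1.11, 0.868 to 1.41). None of the 4 p63-only regions was strong. Those with no CTR peak had 22 reads in intron 10 and 19 reads in intron 4, and those with a weaker CTR peak had 32 against 23 reads in intron 5 (1.45, 0.824 to 2.60) and 26 against 20 in intron 2 (1.36, 0.729 to 2.57). The last 2 of these regions contained an AP-1 motif, and the 2 with no CTR peak each held a single p63 family decamer without mismatches. The 3 CTR-only regions had 17 reads against 7 in p63 in intron 22 (0.430, 0.151 to 1.09), the lowest ratio of the gene, 23 against 13 in intron 4 (0.591, 0.275 to 1.22) and 20 against 13 in intron 3 (0.679, 0.310 to 1.43). All of these intervals included 1. The intronic region with the 3-mismatch p63 family match had 17 reads in CTR and 21 in p63 (1.29, 0.648 to 2.60).

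PLEC (ENSG00000178209.17, chromosome 8, 143915153 to 143976734, minus strand) encodes plectin, the linker between β4 and intermediate filaments, which fibroblasts also make. It had 16 p63 regions, of which 5 were p63-only, more than any other of the 9 genes, and all 5 overlapped weaker CTR peaks. The largest ratios lay outside PLEC, within PARP10. The region 65703 bp upstream of the canonical PLEC TSS had 10 reads in CTR and 44 in p63 (4.60, 2.28 to 10.2), which was percentile 99.7 of all pairs, and a ratio of fold enrichment of 2.81. The region 56504 bp upstream had 13 and 36 reads (2.89, 1.498 to 5.94), a ratio of fold enrichment of 1.95, and was the only p63-only region of the 9 genes with a p63 family site of at most 3 mismatches. The third in PARP10 had 20 and 28 reads (1.46, 0.795 to 2.74). The 2 p63-only regions inside PLEC, 31476 and 33740 bp upstream of the canonical TSS in longer transcripts, had 32 against 45 reads (1.47, 0.913 to 2.39) and 29 against 41 reads (1.48, 0.896 to 2.46). A nearby CTR-only region went the other way, 27360 bp upstream, with 53 reads in CTR and 23 in p63 (0.453, 0.265 to 0.753). It was the only pair of the 9 genes whose interval lay below 1. The other CTR-only region, in PARP10, had 21 reads against 15 (0.746, 0.358 to 1.52). The region over the canonical TSS had 83 reads in CTR and 108 in p63 (1.36, 1.01 to 1.83), with summits 587 bp apart. The pair with the highest −log10 q lay 75160 bp upstream, with 99 and 93 reads (0.981, 0.731 to 1.32).

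LAMA3 (ENSG00000053747.17, chromosome 18, 23689453 to 23956222, plus strand) encodes the α3 chain of laminin-332. Its transcripts start at the 5′ end of the gene or inside it, and the shorter ones give the α3 chain of laminin-332 in the epidermis. The start of the shorter transcripts, whose sequence is printed above with 2 AP-1 motifs, overlapped no p63 peak at any threshold and 1 CTR peak of 7 reads with a −log10 q of 2.56. The nearest p63 peak was 10006 bp away. The canonical TSS at the 5′ end lay in a weak region of both lists with 24 reads in CTR and 21 in p63 (0.914, 0.484 to 1.71). LAMA3 had 19 CTR regions and 14 p63 regions, and all 14 were in both lists. The 5 CTR-only regions were spread over introns 2, 11, 30, 42 and 62 and had 17 to 20 reads each. Those of introns 2, 42 and 62 had no p63 peak, the nearest being 5732, 21345 and 12273 bp away. The paired p63 peaks of the others had 14 reads against 20 in intron 11 (0.731, 0.342 to 1.52), the lowest ratio of the gene, and 15 against 18 in intron 30 (0.870, 0.408 to 1.83). In the other direction, the region in intron 1 at 6071 bp had 19 reads in CTR and 33 in p63 (1.81, 1.002 to 3.38). The strongest region, in intron 2, had 86 and 99 reads (1.20, 0.892 to 1.62). The CTR-only regions were therefore close to the lowest pileup of any region at the threshold, 15 reads.

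LAMB3 (ENSG00000196878.15, chromosome 1, 209614870 to 209652425, minus strand) encodes the β3 chain. The canonical TSS lay in no peak of either list, and the nearest region ended 771 bp away in CTR and 922 bp away in p63. That region, 1025 bp downstream in intron 1, covered the LAMB3 start whose promoter is printed above with an AP-1 motif, and had 53 reads in CTR and 42 in p63 (0.828, 0.539 to 1.26). The p63-only region in intron 3 (chr1:209643496-209644094) had 20 reads, a −log10 q of 10.8 and no CTR peak within 5016 bp. The other p63-only region lay 163 bp from a TSS of CAMK1G, with 16 reads in CTR and 27 in p63 (1.76, 0.916 to 3.50), the highest ratio of the locus, and held an AP-1 motif. Its CTR peak had a −log10 q of 9.62. The CTR-only regions lay in CAMK1G, with 16 reads against 15 (0.979, 0.451 to 2.12), where the p63 peak missed the threshold with a −log10 q of 9.96, and in HSD11B1, with 20 against 10 (0.522, 0.218 to 1.17), the lowest ratio. The CTR-only region in CAMK1G held a single p63 family decamer without mismatches. The pair with the highest −log10 q, 75516 bp downstream, had 29 and 43 reads (1.55, 0.945 to 2.57). Inside LAMB3 the other pairs had 21 against 24 reads and 26 against 29 reads.

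**Figure D4:**
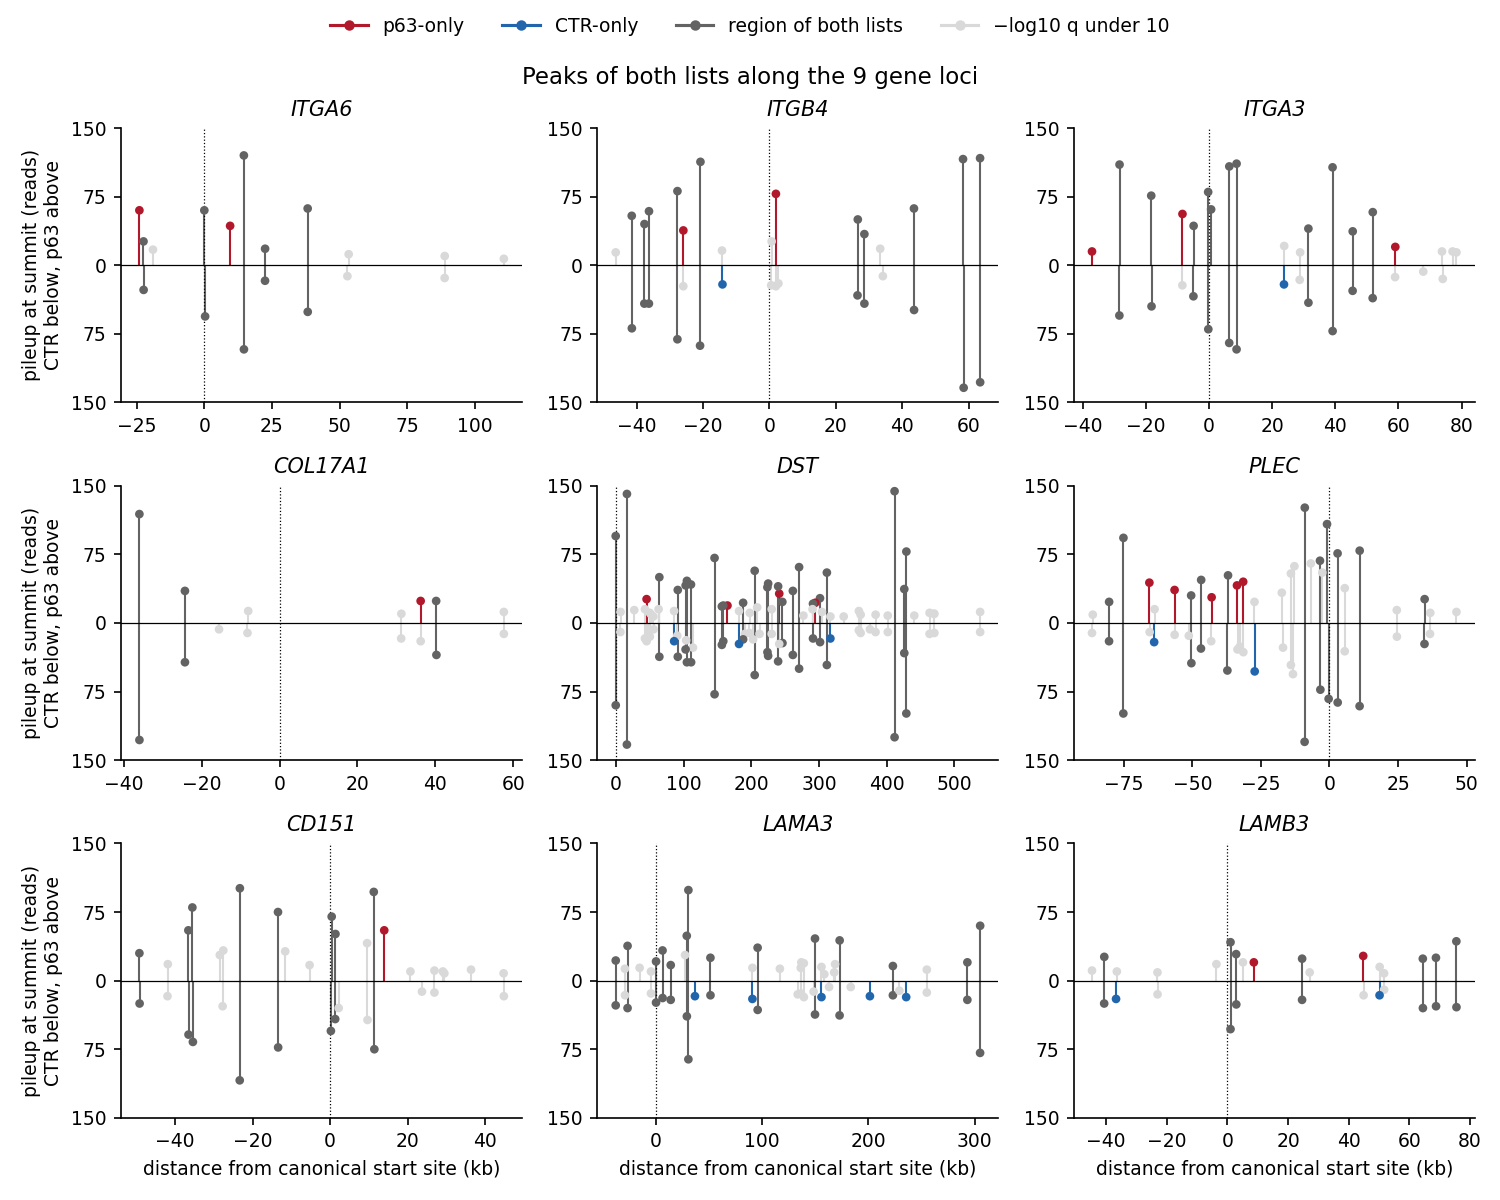
Pileup at the summit (y axis, reads, p63 above and CTR below the line) of every deposited peak at the 9 loci against the distance of its summit from the canonical TSS in the direction of transcription (x axis, kb). Red and blue mark p63-only and CTR-only regions, dark grey regions of both lists and light grey peaks with a −log10 q under 10. ITGB4 shows the p63-only region of 78 reads beside a start site without a region, and COL17A1 shows no peak around its start site.

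The canonical start sites of the 9 genes were in regions or outside them alike in both groups. The canonical TSS lay inside a region in 6 of 9 genes in each list, the exceptions in both being ITGB4, COL17A1 and LAMB3. Of the 138 annotated start sites of all transcripts, 49 lay in a CTR region and 47 in a p63 region.

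The motifs at the summits were then counted, each as letters within 100 bp on either strand. A p63 family site with at most 3 mismatches was found in 1 of the 20 p63-only regions (5.0%, 0.888 to 23.6%), against 11.4% of all p63-only regions, and in 2 of the 93 p63 regions of both lists (2.15%, 0.592 to 7.51%), against 1.39% of all such regions. It was found in 0 of the 14 CTR-only regions, where the interval reached 21.5%. With so few regions the members could not be told from the whole list. The AP-1 motif, TGACTCA or its reverse complement TGAGTCA, was found in 6 of 20 p63-only regions (30.0%, 14.5 to 51.9%) against 22.01% of all p63-only regions, and in 2 of 14 CTR-only regions against 26.1%. The KLF motifs GGGCGTGG and GGGTGTGG were found in 13 of the 113 p63 regions (11.5%, 6.85 to 18.7%) against 5.46% of all p63 regions, and in 9 of the 106 CTR regions (8.49%, 4.53 to 15.4%) against 4.91%. In the p63 regions of both lists they were found in 10 of 93 (10.8%, 5.95 to 18.7%) against 5.22%. These KLF shares were not split by promoter class, and promoters made up more of the regions at the genes. The TEAD motif CATTCC was found in 7 of 20 p63-only regions (35.0%, 18.1 to 56.7%) against 18.0% of all of them, in 4 of 14 CTR-only regions (28.6%, 11.7 to 54.6%) against 21.9%, and in 18 of 93 p63 regions of both lists (19.4%, 12.6 to 28.5%) against 18.4%. A single p63 family decamer without mismatches was found in 4 of 20 p63-only regions (20%, 8.07 to 41.6%) against 15.96%, in 3 of 14 CTR-only regions (21.4%, 7.57 to 47.6%) against 4.85%, and in 5 of 93 p63 regions of both lists (5.38%, 2.32 to 12.0%) against 6.09%. In the RefSeq promoter windows of the organism, 4.95% of 35116 held an AP-1 motif, 8.05% a KLF motif, 14% a TEAD motif and 1.12% a p63 family site. The table gave promoter windows for LAMB3, ITGA6, DST, COL17A1 and LAMA3, and those of ITGB4, ITGA3, CD151 and PLEC were not analysed here.

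Other matrix and adhesion genes were set beside the 9. At 18 further genes of basement membranes and epithelial adhesion, 29 of 157 p63 regions were p63-only (18.5%) and 16 of 144 CTR regions were CTR-only (11.1%). The p63-only regions were most numerous at DAG1, ITGB6, LAMC1 and NID2, with 3 each. At 10 genes of matrix receptors of fibroblasts, 21 of 101 p63 regions were p63-only (20.8%) and 12 of 90 CTR regions were CTR-only (13.3%), with 4 p63-only regions at ITGB3 and 3 each at DDR2, ITGA11 and ITGB5. Both p63-only shares lay inside the interval of the 9 genes, 11.8 to 25.8%. The median pileup ratio was 1.06 in both lists, against 1.14 at the 9 genes and 1.04 over all pairs.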

How the data were processed

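ATAC-seq was performed by the authors in 4 samples, 2 replicates each of BJ cells expressing KLF4 alone (CTR) and ΔNp63α with KLF4 (p63), grouped by their labels. Per the study's methods and the submitters' processing notes, the authors mapped reads to hg38 with Bowtie2 2.3.4.3 and made 1 list per group from both replicates with MACS2. The MACS2 version and options are not given in the sources used here, nor is the treatment of duplicate reads or of the transposase offset. The deposited lists give each peak's fold enrichment (a ratio of the pileup to the local background), −log10 p, −log10 q and summit position, with no value per replicate.

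From these, the pileup and background of each peak were solved as the whole number of reads and the Poisson mean that give both its fold enrichment and its −log10 p, within a tolerance of 0.001, for all but 16 peaks of each list. This was tested on simulated data, as were the overlap and the site scan. The background coverage, taken as the lowest background of any solved peak, was 1.18 in CTR and 1.13 in p63. The median pileup at the threshold was 33 in both, so that single ratios have wide intervals. Reads without molecular identifiers are not independent molecules, and the intervals (95%, Wilson for shares and exact conditional binomial for ratios) cover counting error only.

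Peaks on chromosomes 1 to 22, X and Y were used. Peaks sharing 1 bp or more (bedtools 2.31.1) were taken as overlapping and places were taken from GENCODE release 44, with coordinates 1-based. At each gene the text names every list-only region up to 5, the region at the canonical TSS, and the pairs with the highest −log10 q and the highest and lowest ratio. Other regions were described after their values were seen. The 9 genes, the comparison lists and the motifs were chosen with earlier results of these data known. Alternatives were other thresholds, windows, overlaps, scalings, mismatch limits and gene sets.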

Additional observations from a re-analysis of the deposited data

How the results depend on the processing

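The median p63/CTR pileup ratio at the 9 genes stayed between 1.09 and 1.20 under its 9 alternatives on the pileup, and was 1.03 with fold enrichment in its place, an alternative chosen after seeing the data. The p63-only share stayed within its interval except where list-only regions were limited to those missing altogether from the opposite list, which gave 6.19%, and the CTR-only share likewise, with 2.83%. That rule left 7 p63-only and 3 CTR-only regions. Equal numbers of top-ranked peaks turned the order of the lists, with 16 p63-only and 20 CTR-only regions (15.5% and 18.9%), against 20 and 14 at the threshold. With all deposited peaks there were 44 p63-only and 23 CTR-only regions, and with a −log10 q of 20 or more 17 p63-only and 7 CTR-only regions. Where both peaks had to overlap by 50%, there were 29 p63-only and 22 CTR-only regions. The whole-list shares under these rules are not given here, so these counts have no background share beside them. The number of p63-only regions fell to 13 within 10 kb of a TSS and to 10 in gene bodies alone, where fewer regions were counted. The share of p63-only regions with a p63 family site rested on 1 region at the PLEC locus. It was 0% without PLEC, with at most 2 mismatches, within 50 bp of the summit, within 10 kb of a TSS, in gene bodies alone, with the canonical TSS alone and with complete absence required. No paired analysis was possible because the lists hold no value per replicate, and leaving out a replicate could not be run for the same reason. The pileup of 15 reads at the threshold limits what could be seen.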
